A study of Sus scrofa with 43 samples.

Results

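Genes of fatty acid oxidation and its control were followed in the jejunum of piglets over 5 ages, from the day after birth to 4 wk postweaning. The 6 genes were *PPARA*, *PPARGC1A*, *CPT1A*, *ACADM*, *ACADL* and *UCP2*, chosen by name. They were found by the RefSeq transcript accession that the scan files give for each spot, 1 accession per gene, and are 6 of the 35884 accessions on the array. Of the 6, 5 passed the filter on dim genes and were among the 12771 genes tested, and *PPARA* did not. *CPT1A* was measured by 6 probes, *ACADM* by 7, *ACADL* by 6, and *PPARA*, *PPARGC1A* and *UCP2* by 1 each.

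Gene expression was measured in jejunal scrapings of 43 piglets, with 1 one-color Agilent array for each. Of these piglets, 23 were born to control sows on standard feed. The other 20 were born to sows given amoxicillin, a penicillin-type antibiotic, at 15 mg/kg body weight daily in the feed from 1 wk before the expected farrowing until farrowing. The piglets themselves were not treated. Control sows contributed 6 piglets at day 1, 6 at day 7, 3 at weaning, 5 at 4 d postweaning and 3 at 4 wk postweaning, and amoxicillin sows contributed 4 at each age. Day 1, day 7 and weaning are called the suckling ages. By the study's methods 1 male piglet per sow was taken at each age, so piglets of different ages may be littermates. The labels do not name the sow, and p-values measure the spread between these piglets only. Among the control samples of day 1 are those labelled 19 and 19B, and the labels do not say how they are related. They are counted as separate piglets, since by the study's methods each sample stands for an individual animal.

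Fatty acids are oxidized in mitochondria after activation to acyl-CoA and transfer over the inner membrane by the carnitine shuttle. *CPT1A* is the entry enzyme of that shuttle and its main point of control. Acyl-CoA dehydrogenases then start each turn of the β-oxidation cycle, *ACADM* on medium chains and *ACADL* on long chains. *PPARA* is the nuclear receptor that switches these genes on when fatty acids are plentiful, and *PPARGC1A* is the coactivator that works with it and drives mitochondrial biogenesis. *UCP2* is a carrier of the mitochondrial inner membrane. Sow milk is rich in fat while weaning diets are rich in starch, so suckling and weaned piglets differ in the fuel that reaches the gut. None of the 6 genes encodes an enzyme that makes ketone bodies. No sequence of these genes or of the probes is shown.

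All values are normalized log2 intensities, so that a difference of 1 is a doubling. A gene was called changed at a Benjamini-Hochberg adjusted p under 0.05 in 1 limma fit of all 43 arrays. Between amoxicillin and control a log2 difference beyond 1.5 was also required. Levels of different genes were measured by different probes and are not compared.

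The 43 arrays lay on 6 slides, 3 per arm, and each slide held neighbouring ages. No slide held both day 1 and 4 wk postweaning, so age and slide are largely bound together. Slide and treatment cannot be told apart. Between 15937 and 29827 gene spots were well above background on the control arrays and between 16150 and 26290 on the amoxicillin arrays. The mean of 5 enterocyte markers lay between 13.58 and 15.87 on all arrays, and the lowest value came from piglet 8 of the amoxicillin arm at weaning. *FABP2*, *APOA4*, *ANPEP* and *DPP4* reached the top of the array's scale (15.9993) in some piglets. Of the 5 markers 2 were higher postweaning, *SLC5A1* by 0.74 and *DPP4* by 0.62, and 0 were lower. Group means of the average of 5 hepatocyte markers were between 6.32 and 6.79. Of these markers, *SERPINA1* (mean 9.24 over the 43 arrays) and a transcript of *TF* (7.98) passed the filter limit of 7.68 in at least 1 group. Neither was called between suckling and postweaning, and the others did not pass. Of 3 markers of ileal enterocytes tested, 1 was higher postweaning, *FABP6*, a bile acid binding protein (2.45, SE 0.83, adjusted p = 0.0146 by limma). Group means of that list ran from 9.24 to 11.69 at the suckling and from 10.81 to 11.90 at the postweaning ages. Both macrophage markers tested were higher postweaning, *CD163* by 1.09 and *AIF1* by 0.59. T-cell markers moved with age: 6 of 6 tested were higher postweaning, and the list mean went from 6.44 at day 1 to 9.09 at 4 wk postweaning in control piglets. Of 3 smooth muscle markers tested, 2 were lower postweaning. The part of these shifts in the results below was not tested. In a scraping of mixed tissue, fewer cells of a type and less RNA per cell cannot be told apart.

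Between the suckling and the postweaning ages, *CPT1A*, *ACADM* and *ACADL* fell and *PPARGC1A* rose, with both arms averaged. *CPT1A* fell by 1.03 on the log2 scale (SE 0.17, adjusted p = 5.05e-06 by limma), a 2.05-fold lower level. It exceeded the filter limit for dim genes on all arrays of the 6 suckling groups. Of the postweaning groups it did so in only 1, amoxicillin at 4 d postweaning. The lowest values were under the limit in control piglets at 4 d (7.34) and 4 wk postweaning (7.43). The same held for amoxicillin piglets at 4 wk postweaning (6.59). The fall thus runs into the dim range. With a filter on spots well above background instead, *CPT1A* was not among the genes tested. *ACADM* fell by 0.63 (SE 0.16, adjusted p = 0.0017) and *ACADL* fell by 0.50 (SE 0.17, adjusted p = 0.0152). *PPARGC1A* was higher by 0.75 (SE 0.19, adjusted p = 0.00145), a 1.68-fold rise. *UCP2* differed by 0.12 (SE 0.28, adjusted p = 0.754) and was not called. This depended on the weaning piglets. With weaning left out of the suckling ages it was higher postweaning by 0.80 (SE 0.30, adjusted p = 0.0245), and all 5 members were called, with *PPARGC1A* then called in the amoxicillin arm too (0.89, adjusted p = 0.0181). Thus 4 of the 5 tested members were called, beside 48.1% of all genes tested, of which 20.8% were higher and 27.3% lower. The members' count is thus to be read against a background of many calls over the whole array. The difference of *CPT1A* was lower than that of all but 4.98% of the genes tested, and those of *ACADM* and *ACADL* lay at 13.5% and 19.3%. *PPARGC1A* lay at 89.4%, and *UCP2* at 65.6%. Within 1 arm alone, 2 of the 5 members were called in control piglets (*CPT1A* and *PPARGC1A*, beside 33.6% of all genes) and 2 in amoxicillin piglets (*CPT1A* and *ACADM*, beside 30.9%).

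**Figure D1:**
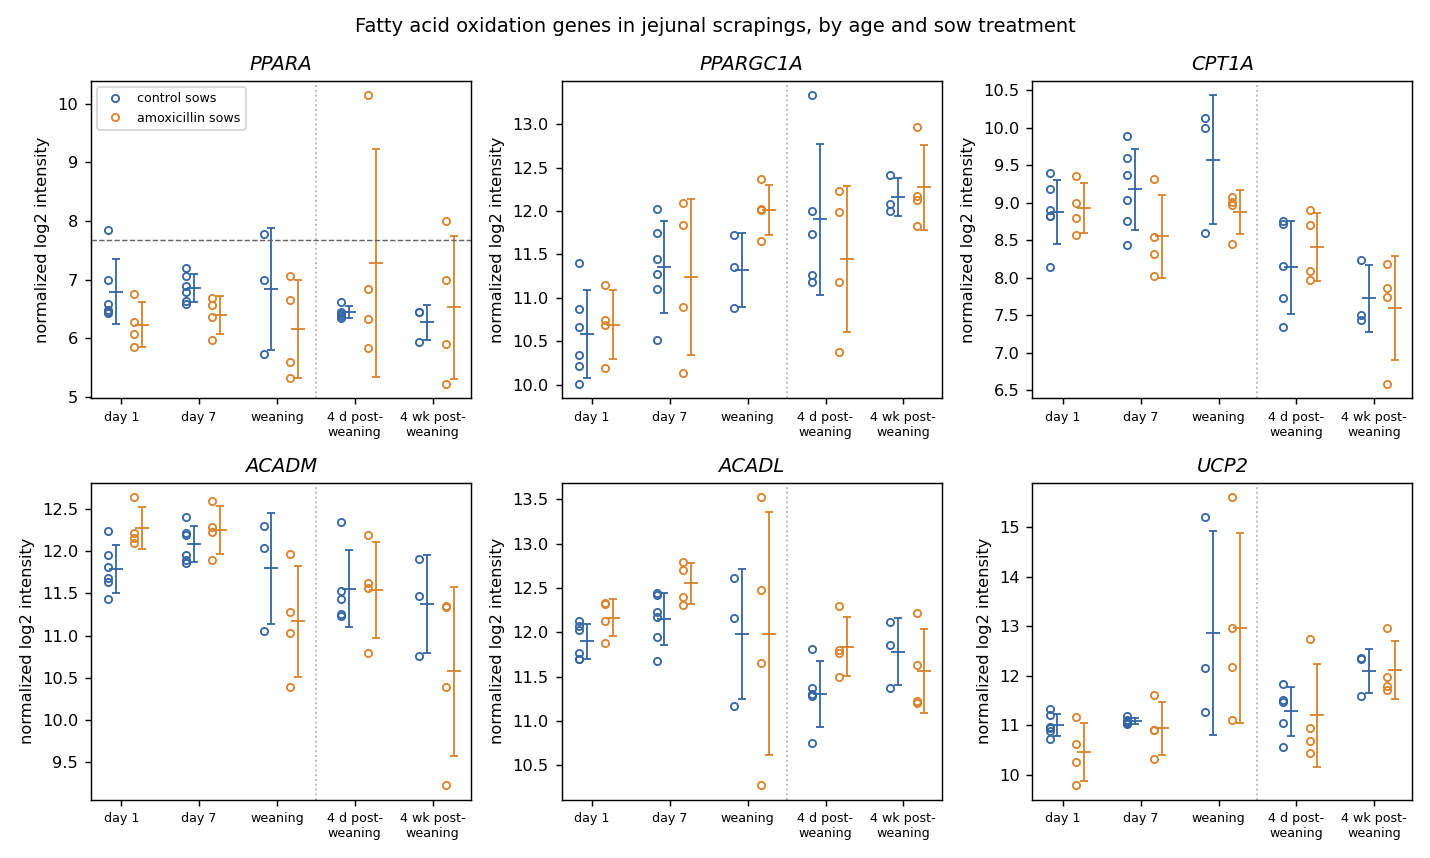
Normalized log2 intensity (y axis) of the 6 genes at 5 ages (x axis) in piglets of control sows (blue) and amoxicillin sows (orange). Each circle is 1 piglet, the bars are the group mean and SD, the dotted line separates suckling from postweaning ages, and the dashed line in the *PPARA* panel is the filter limit of 7.68. *CPT1A* was lowest at 4 wk postweaning in both arms, and *UCP2* had a single very high piglet per arm at weaning.

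With slide as a fixed block, which rests on ages that shared a slide, none of these 4 differences was called. *CPT1A* then differed by -0.72 (SE 0.42, adjusted p = 0.347), *ACADM* by -0.34 (SE 0.39, adjusted p = 0.697), *ACADL* by -0.51 (SE 0.44, adjusted p = 0.564) and *PPARGC1A* by 0.43 (SE 0.43, adjusted p = 0.638). All 4 kept their sign, with standard errors more than doubled. Over all genes 391 were called higher and 447 lower with the block, against 2650 and 3490 without it. With slide as a random block *CPT1A*, *ACADM* and *PPARGC1A* stayed called, and *ACADL* did not (-0.50, adjusted p = 0.0645).

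**Figure D2:**
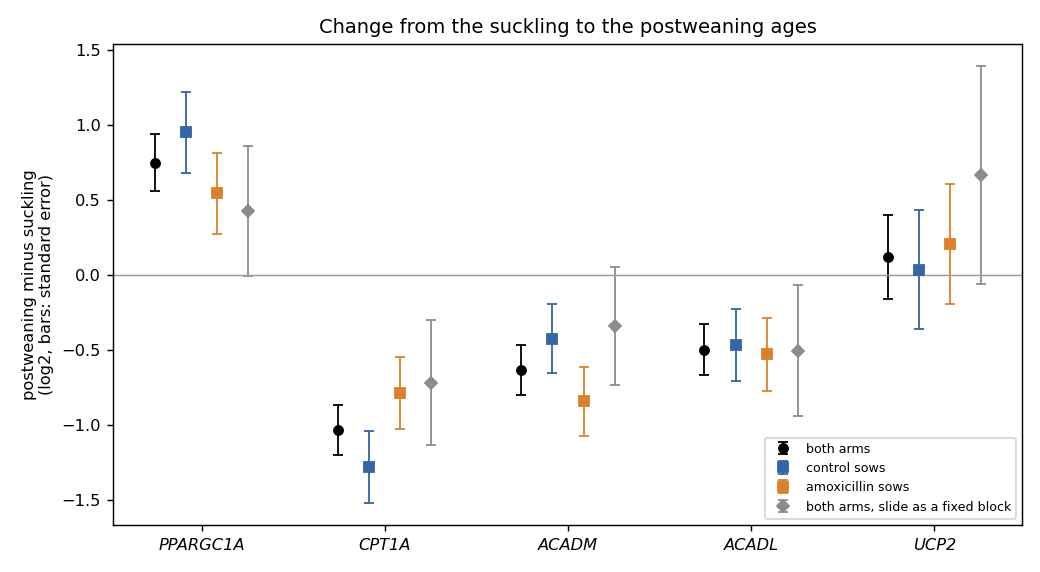
Postweaning minus suckling difference in log2 intensity (y axis) of the 5 tested genes (x axis), with standard errors as bars. Black circles are both arms averaged, blue squares control sows, orange squares amoxicillin sows, and grey diamonds both arms with slide as a fixed block. *CPT1A*, *ACADM* and *ACADL* lie below 0 in every fit shown and *PPARGC1A* above 0, and the grey bars are the widest.

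*PPARA* gave a weak signal throughout. Its only probe was well above background on 27 of the 43 arrays, and no group exceeded the filter limit of 7.68 on all its arrays. In control piglets all arrays were well above background at day 1, day 7 and 4 d postweaning, with means of 6.80 ± 0.55 (SD, n = 6), 6.86 ± 0.24 (n = 6) and 6.44 ± 0.10 (n = 5). At weaning and at 4 wk postweaning 2 of 3 control arrays were well above background, with means of 6.84 ± 1.04 and 6.27 ± 0.30. In the amoxicillin arm the probe was not well above background on any of 4 arrays at day 1, on 1 of 4 at day 7, 2 of 4 at weaning, 2 of 4 at 4 d postweaning and 1 of 4 at 4 wk postweaning. At day 1 the measured mean was 1.48-fold higher in control than in amoxicillin piglets (6.80 and 6.23), where the amoxicillin value is only a bound. Without the filter this difference, amoxicillin minus control, was not called (-0.56, SE 0.52, adjusted p = 0.688 by limma). Fewer spots of all kinds were well above background in the amoxicillin arm (median 21316.5 against 28182).

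A single piglet stood out for *PPARA*. Piglet 34 of the amoxicillin arm at 4 d postweaning gave 10.14, and the other 3 of its group gave 5.83, 6.33 and 6.84. It was the only array of its group on its slide. Without the filter, *PPARA* differed by 0.08 between suckling and postweaning (SE 0.26, adjusted p = 0.832), by -0.47 in control and by 0.64 in amoxicillin piglets. No difference of *PPARA* was called between neighbouring ages or between arms in that fit.

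*PPARGC1A* rose with age. In control piglets its log2 intensity ran from 10.01 to 11.40 at day 1 (median 10.51, n = 6) and from 10.51 to 12.02 at day 7 (median 11.36, n = 6). At weaning the 3 control piglets gave 10.88, 11.35 and 11.72. At 4 d postweaning they gave 11.19, 11.26, 11.74, 12 and 13.33, and at 4 wk postweaning 12.0003, 12.08 and 12.41. No control piglet at 4 wk postweaning was below the highest of day 1, and the ranges of neighbouring ages overlapped.

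In the amoxicillin arm *PPARGC1A* was at 10.19, 10.69, 10.74 and 11.15 at day 1 and at 10.14, 10.89, 11.84 and 12.09 at day 7. It reached 11.66, 12.01, 12.02 and 12.36 at weaning, above every day 1 piglet. At 4 d postweaning the piglets gave 10.38, 11.18, 11.98 and 12.23, and at 4 wk postweaning 11.83, 12.12, 12.17 and 12.97. The value of 10.38 came from piglet 34, the same array that was high for *PPARA*.

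With both arms averaged, the order of ages for *PPARGC1A* was 4 wk postweaning (12.22), 4 d postweaning (11.67), weaning (11.66), day 7 (11.30) and day 1 (10.64), and no neighbours in this order differed past the threshold. Between ages farther apart, weaning was higher than day 1 by 1.03 (adjusted p = 0.00947, where 24.1% of genes were called). At 4 wk postweaning it was higher than day 1 by 1.58 (adjusted p = 4.49e-05, 43.0% of genes called) and than day 7 by 0.92 (adjusted p = 0.012, 40.9% called). The rise from suckling to postweaning was called in control piglets (0.95, SE 0.27, adjusted p = 0.00578) and not in amoxicillin piglets (0.54, SE 0.27, adjusted p = 0.123). The difference between the arms was not called (-0.41, SE 0.38, adjusted p = 0.682). Without piglet 34 the amoxicillin value was 0.72 (adjusted p = 0.0395) and was called. Within slides, neighbouring ages of *PPARGC1A* overlapped in every case where each age had more than 1 array.

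*CPT1A* held its level through suckling and was lower after weaning. In control piglets it ran from 8.15 to 9.39 at day 1 (median 8.86, n = 6) and from 8.44 to 9.89 at day 7 (median 9.20, n = 6). The 3 control piglets at weaning gave 8.59, 10.00 and 10.14. At 4 d postweaning the control values were 7.34, 7.72, 8.15, 8.71 and 8.76, and at 4 wk postweaning 7.43, 7.50 and 8.24. The 2 highest control values of all ages were thus those at weaning, and 2 of the 3 piglets at 4 wk postweaning were below every suckling control piglet.

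In the amoxicillin arm *CPT1A* was at 8.57, 8.80, 9.001 and 9.36 at day 1, at 8.02, 8.32, 8.55 and 9.32 at day 7, and at 8.45, 8.97, 9.01 and 9.08 at weaning. It was at 7.97, 8.09, 8.70 and 8.90 at 4 d postweaning and at 6.59, 7.74, 7.86 and 8.18 at 4 wk postweaning. All 4 amoxicillin piglets at weaning were below the 2 high control piglets and near the third. The fall from suckling to postweaning was 1.28 in control piglets (fell by 1.28, SE 0.24, adjusted p = 6.84e-05) and 0.78 in amoxicillin piglets (fell by 0.78, SE 0.24, adjusted p = 0.0115). The difference between the arms was not called (0.50, SE 0.34, adjusted p = 0.532).

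Of the steps between neighbouring ages, *CPT1A* changed at the step over weaning. From weaning to 4 d postweaning it fell by 0.95 with both arms averaged (SE 0.27, adjusted p = 0.0155, where 13.7% of all genes were called). In control piglets alone it fell by 1.44 (SE 0.38, adjusted p = 0.0342, 2.53% of genes called). Within the slide shared by both ages the control difference was -0.86, with 3 arrays against 1, and the amoxicillin difference was -0.35, with 4 arrays against 3. The ages overlapped on both slides. The both-arm call was lost without piglet 25 of the control arm at weaning (-0.81, adjusted p = 0.0567). It was also lost with slide as a fixed block (-0.61, SE 0.36, adjusted p = 0.351). The control call was lost without any of 5 piglets, among them piglets 24 and 25 at weaning (adjusted p = 0.133 and 0.174).

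The order of ages for *CPT1A* was weaning (9.23), day 1 (8.90), day 7 (8.87), 4 d postweaning (8.28) and 4 wk postweaning (7.66), and no neighbours in this order differed past the threshold. At 4 wk postweaning it was lower than at weaning by a log2 difference of -1.57 (adjusted p = 0.000121, 26.9% of genes called), than at day 1 by -1.25 (adjusted p = 0.000205) and than at day 7 by -1.21 (adjusted p = 0.000365). At 4 d postweaning it was lower than at day 1 by -0.63 (adjusted p = 0.0451, 32.0% called).

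The 6 probes of *CPT1A* differed widely in brightness, with means over the 43 arrays from 5.67 to 12.60, and the gene value is their average. All 6 were lower postweaning with both arms averaged, by -0.48 to -1.33. The dimmest probe was well above background on 11 arrays. In control piglets the 6 differences ran from -0.97 to -1.62. In amoxicillin piglets they ran from 0.06 to -1.25, and the 2 smallest in size, 0.06 and -0.32, came from the 2 dimmest probes.

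**Figure D3:**
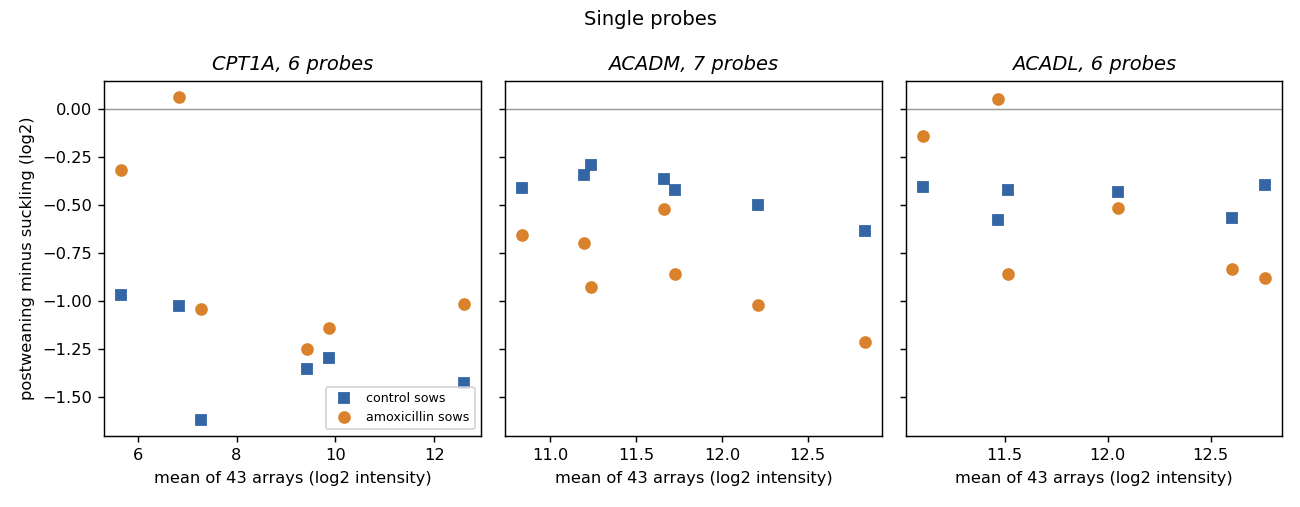
Postweaning minus suckling difference in log2 intensity (y axis) of each probe of *CPT1A*, *ACADM* and *ACADL* against the mean log2 intensity of that probe over the 43 arrays (x axis), in control (blue squares) and amoxicillin piglets (orange circles). All control points lie below 0, and 2 amoxicillin points, 1 each of *CPT1A* and *ACADL*, lie just above it (0.06 and 0.05).

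*ACADM* was high in suckling piglets. In control piglets it ran from 11.43 to 12.24 at day 1 (median 11.75, n = 6) and from 11.86 to 12.41 at day 7 (median 12.07, n = 6), and it was 11.05, 12.04 and 12.30 at weaning. It was 11.23, 11.25, 11.43, 11.53 and 12.35 at 4 d postweaning, and then 10.76, 11.47 and 11.91 at 4 wk postweaning. The value of 12.35 belongs to piglet 10, the only array of its group on its slide, and the control ages overlapped throughout.

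In the amoxicillin arm *ACADM* was at 12.10, 12.16, 12.22 and 12.65 at day 1 and at 11.90, 12.23, 12.29 and 12.60 at day 7. At weaning it was 10.39, 11.03, 11.28 and 11.97, and 3 of these 4 piglets were below all of the younger ones. It was 10.80, 11.56, 11.62 and 12.19 at 4 d postweaning, and then 9.22, 10.39, 11.33 and 11.35 at 4 wk postweaning. No amoxicillin piglet at 4 wk postweaning reached any of day 1 or day 7.

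From day 7 to weaning *ACADM* fell by 1.09 in amoxicillin piglets (SE 0.36, adjusted p = 0.0441, where 11.3% of genes were called). With both arms averaged the step was -0.69 (SE 0.25, adjusted p = 0.0717) and was not called. The amoxicillin call was lost without piglet 8 at weaning (-0.83, adjusted p = 0.165) and without any of 5 other piglets of these 2 groups. Piglet 8 is the array with the lowest mean of the enterocyte markers (13.58). Within the slide that holds both ages the difference was -0.73, with 1 array against 4. From suckling to postweaning *ACADM* fell in amoxicillin piglets by 0.84 (SE 0.23, adjusted p = 0.00544). In control piglets the difference was -0.42 (SE 0.23, adjusted p = 0.159), and with slide as a fixed block it had the other sign (0.42, SE 0.58). The difference between the arms was not called (-0.42, SE 0.33, adjusted p = 0.602).

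The order of ages for *ACADM* was day 7 (12.17), day 1 (12.04), 4 d postweaning (11.55), weaning (11.48) and 4 wk postweaning (10.98), and no neighbours in this order differed past the threshold. At 4 wk postweaning it was lower than at day 7 by -1.20 (adjusted p = 0.000299) and than at day 1 by -1.06 (adjusted p = 0.000918). All 7 probes were lower postweaning in each arm, from -0.29 to -0.64 in control and from -0.52 to -1.21 in amoxicillin piglets.

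*ACADL* changed least of the 3 oxidation enzymes that fell, although the difference between the 3 was not tested. In control piglets it ran from 11.69 to 12.13 at day 1 (median 11.90, n = 6) and from 11.68 to 12.44 at day 7 (median 12.20, n = 6), and it was 11.17, 12.16 and 12.61 at weaning. It was 10.75, 11.29, 11.30, 11.37 and 11.81 at 4 d postweaning, and then 11.37, 11.85 and 12.11 at 4 wk postweaning. The values at 4 d postweaning were mostly under those of the suckling piglets, and those at 4 wk postweaning were within their range.

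In amoxicillin piglets *ACADL* was at 11.88, 12.13, 12.31 and 12.33 at day 1 and at 12.30, 12.40, 12.70 and 12.79 at day 7. At weaning it spread from 10.27 to 13.52, with 11.66 and 12.48 between. It was 11.50, 11.77, 11.80 and 12.29 at 4 d postweaning, and then 11.20, 11.22, 11.63 and 12.21 at 4 wk postweaning. The SD of 1.37 at weaning was the largest of the gene, and its lowest value came from piglet 8.

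From suckling to postweaning *ACADL* differed by -0.47 in control (SE 0.24, adjusted p = 0.134) and by -0.53 in amoxicillin piglets (SE 0.24, adjusted p = 0.0905), and neither was called alone. The amoxicillin difference without piglet 8 was -0.72 (adjusted p = 0.0047), and the control difference without piglet 7 at weaning was -0.60 (adjusted p = 0.0499). Both were then called. The amoxicillin difference was also called without piglet 40 at 4 wk postweaning (-0.64, adjusted p = 0.0476). In the order of ages, day 7 (12.35), day 1 (12.03), weaning (11.98), 4 wk postweaning (11.67) and 4 d postweaning (11.57), no neighbours differed past the threshold. At 4 d and 4 wk postweaning it was lower than at day 7, by -0.78 (adjusted p = 0.0168, 26.8% of genes called) and -0.67 (adjusted p = 0.0387). The 6 probes differed by -0.26 to -0.70 with both arms averaged.

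*UCP2* followed another course. In control piglets it ran from 10.72 to 11.32 at day 1 (median 10.95, n = 6) and from 11.03 to 11.19 at day 7 (median 11.07, n = 6). At weaning the 3 control piglets gave 11.26, 12.14 and 15.20. It was 10.56, 11.04, 11.46, 11.51 and 11.82 at 4 d postweaning, and then 11.58, 12.34 and 12.35 at 4 wk postweaning. Every control piglet at weaning was above every control piglet at day 7, and 1 of them, piglet 7, was more than 3 log2 units above the next.

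The amoxicillin arm showed the same kind of spread. *UCP2* was at 9.78, 10.26, 10.62 and 11.17 at day 1 and at 10.31, 10.89, 10.91 and 11.62 at day 7. It was 11.10, 12.16, 12.96 and 15.61 at weaning, the highest from piglet 8. It was 10.44, 10.68, 10.93 and 12.73 at 4 d postweaning, and then 11.71, 11.79, 11.97 and 12.96 at 4 wk postweaning. Within each arm the group at 4 wk postweaning did not overlap with that of day 7.

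From day 7 to weaning *UCP2* rose by 1.90 with both arms averaged (SE 0.44, adjusted p = 0.00448, where 11.5% of all genes were called), a 3.74-fold higher level. From weaning to 4 d postweaning it fell by 1.67 (SE 0.44, adjusted p = 0.0107), a 3.19-fold lower level. The rise stayed called without any single array. Without both piglet 7 of the control and piglet 8 of the amoxicillin arm the rise was 0.88 (SE 0.31, adjusted p = 0.0758) and the fall -0.65 (SE 0.31, adjusted p = 0.142), and neither was called. Without piglet 7 alone the fall was -1.09 (adjusted p = 0.0687). The rise with slide as a fixed block was 1.93 (SE 0.62, adjusted p = 0.0689). Within slides it was 1.79 in control piglets, with 4 arrays against 3, and 2.07 in amoxicillin piglets, with 1 array against 4. The ages did not overlap on these slides. Over the whole amoxicillin arm they did, with day 7 reaching 11.62 and weaning starting at 11.10.

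The same 2 arrays were set apart by B-cell markers. The mean of *CD79A* and *MS4A1*, 2 surface proteins of B cells, was 13.43 in piglet 7 and 13.76 in piglet 8 and between 4.91 and 9.80 in the other 41, of which 1 lacked a value for *CD79A*. *CD79A* alone was 14.21 and 14.67 in these 2 piglets, against 7.53 and 7.63 in the other control and 6.83, 9.34 and 10.02 in the other amoxicillin piglets at weaning. Both markers rose from day 7 to weaning (3.41, SE 0.79, and 3.55, SE 0.75). The jejunum holds Peyer's patches, which are lymphoid follicles rich in B cells, and *UCP2* is known to be abundant in lymphoid tissue. From 4 d to 4 wk postweaning the group mean of both markers went from 7.83 to 7.30 in control and from 7.46 to 7.11 in amoxicillin piglets, while that of *UCP2* went from 11.28 to 12.09 and from 11.20 to 12.11. In amoxicillin piglets *CD79A* alone went from 7.56 to 8.67 over this step, and in control piglets from 8.22 to 7.59. The control mean of both markers at 4 wk postweaning took piglet 13 from *MS4A1* alone. The part of these transcripts in the *UCP2* values was not tested.

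**Figure D4:**
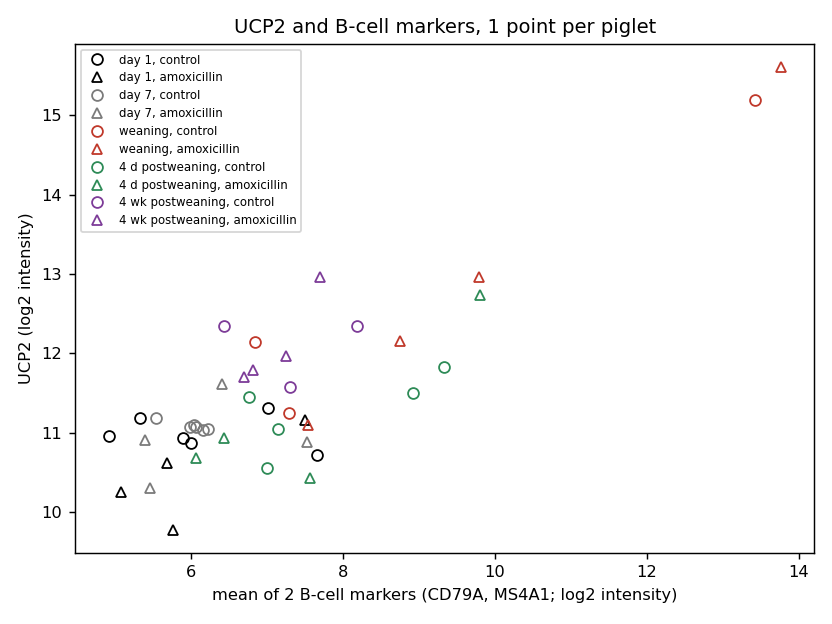
Log2 intensity of *UCP2* (y axis) against the mean log2 intensity of the B-cell markers *CD79A* and *MS4A1* (x axis) in 43 piglets, with circles for control and triangles for amoxicillin sows and a color for each age. The 2 piglets at the top right, both at weaning, have B-cell levels of 13.43 and 13.76 and *UCP2* levels of 15.20 and 15.61, and no other piglet exceeds 9.80 and 12.96.

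The fatty acid oxidation enzymes were low in these 2 arrays. *CPT1A* was 8.59 in piglet 7 and 8.45 in piglet 8, each the lowest of its group, and so were *ACADM* (11.05 and 10.39) and *ACADL* (11.17 and 10.27). Without both arrays the suckling to postweaning differences were -1.14 for *CPT1A*, -0.74 for *ACADM*, -0.66 for *ACADL* and 0.71 for *PPARGC1A*, all called. *UCP2* was then called as well (0.46, SE 0.18, adjusted p = 0.0346), so that the count of members called was 5. The order of ages for *UCP2* was weaning (12.91), 4 wk postweaning (12.10), 4 d postweaning (11.24), day 7 (11.01) and day 1 (10.73), with no neighbours past the threshold. At 4 wk postweaning it was higher than at day 1 by 1.37 (adjusted p = 0.0104) and than at day 7 by 1.09 (adjusted p = 0.0428). Without the 2 arrays the step from 4 d to 4 wk postweaning, 0.86, was called (adjusted p = 0.0473), and it was not with them (adjusted p = 0.235).

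Of the steps between neighbouring ages with both arms averaged, none was called for the 5 members from day 7 against day 1 (0 of 5 by limma, 1 with an unadjusted p under 0.05, beside 3.13% of all genes) or from 4 d to 4 wk postweaning (0 of 5, 2 with an unadjusted p under 0.05, beside 5.43%).

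Tested over the 5 ages at once with limma's F-test, *CPT1A* (adjusted p = 0.00124) and *PPARGC1A* (adjusted p = 0.0116) differed in control piglets. These are 2 of 5 members, beside 30.5% of all genes. In amoxicillin piglets *CPT1A* (adjusted p = 0.0178), *ACADM* (adjusted p = 0.000607), *PPARGC1A* (adjusted p = 0.0136) and *UCP2* (adjusted p = 0.00699) differed, 4 of 5 beside 47.0% of all genes. With slide as a random block these counts were 0 and 2, and with slide as a fixed block 0 and 0.

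No difference between amoxicillin and control piglets was called for the members at any age. Over 25 tests by limma, 5 members at 5 ages, 0 passed and 1 had an unadjusted p under 0.05. That was *ACADM* at 4 wk postweaning, which was lower in amoxicillin piglets by -0.81 (SE 0.39, adjusted p = 0.273 by limma), and the ranges of the arms overlapped. Of all genes 0.211% were called at day 1, 0 at day 7, 3.41% at weaning, 1.54% at 4 d postweaning and 2.13% at 4 wk postweaning. *CPT1A* was lower in amoxicillin piglets by -0.63 at day 7 (SE 0.34, adjusted p = 0.753) and by -0.70 at weaning (SE 0.40, adjusted p = 0.306). *PPARGC1A* at weaning was higher by 0.69 (SE 0.45, adjusted p = 0.385). All 25 differences were below 0.81 in size on the log2 scale. The treatment difference did not vary with age past the threshold in any of the 5 members (smallest adjusted p 0.329, *ACADM*, and 0 with an unadjusted p under 0.05), beside 6.18% of all genes. Nor did the suckling to postweaning change differ between the arms, 0 of 5 (smallest unadjusted p 0.15) beside 3.06%.

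Other genes of the pathway were described from a list of 71 symbols. Of these 37 had a probe and 32 were tested. From suckling to postweaning, with both arms averaged, 15 fell, 3 rose and 14 were not called, beside 27.3% lower and 20.8% higher of all genes. Of the 15, *UCP3* and *PDK4* passed the filter on dim genes at suckling ages only, where they were high. Their falls were thus in part set by the filter, and their calls carry no weight. The other 13 passed it at ages on both sides of weaning. The shares over all genes were not split in this way. The median difference of all 32 was -0.25, and it was -0.07 over all genes tested. Only 3 of the 32 were called with slide as a fixed block, *OXCT1*, *ACSL4* and *DECR1*, beside 391 higher and 447 lower of all 12771 genes.

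**Figure D5:**
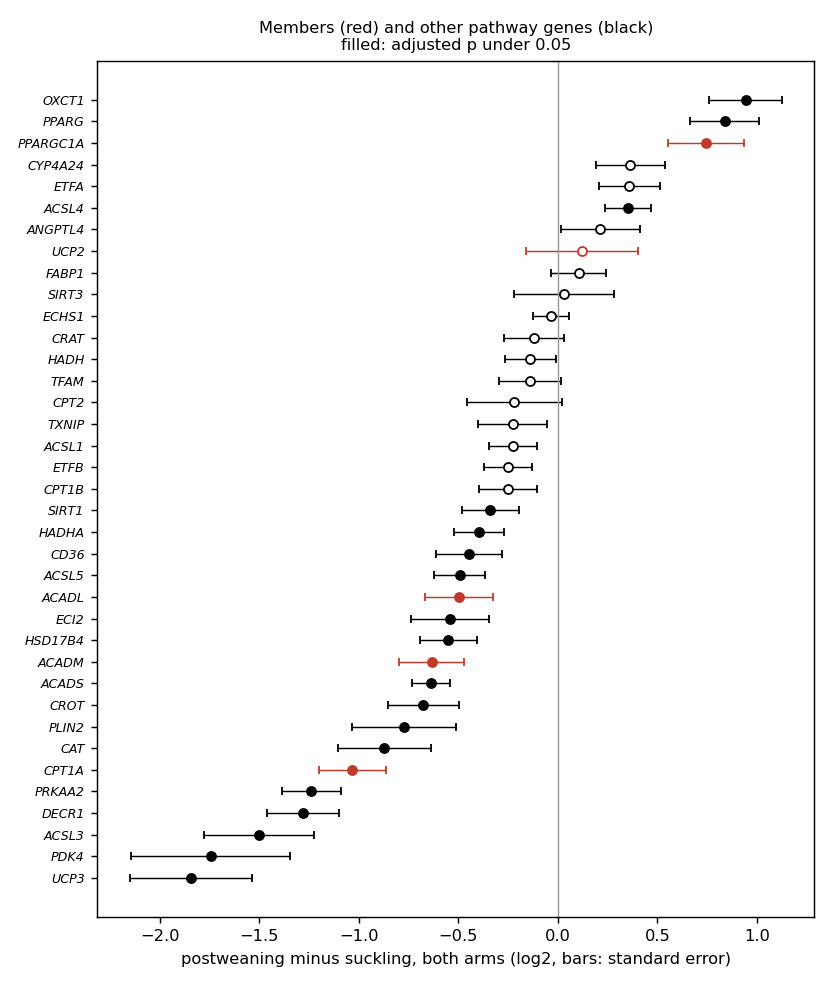
Postweaning minus suckling difference in log2 intensity, both arms averaged (x axis), of the 5 tested members (red) and 32 other tested genes of the pathway (black), sorted by size, with standard errors as bars. Filled points have an adjusted p under 0.05. *OXCT1* is highest at 0.94. The 2 lowest, *UCP3* and *PDK4*, passed the filter on dim genes at suckling ages only, so their falls were in part set by it.

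Among regulators *PRKAA2*, the catalytic subunit α of AMP-activated kinase, fell by 1.24 (SE 0.15, adjusted p = 2.34e-08). Its group means went from 11.92 ± 0.26 at day 1 (SD, n = 6) to 9.54 ± 0.13 at 4 wk postweaning (n = 3) in control piglets, and from 12.10 ± 0.23 to 8.64 ± 0.84 (n = 4 each) in amoxicillin piglets. *PPARG*, a nuclear receptor of lipid storage, rose by 0.84 (SE 0.17, adjusted p = 0.000147). Its highest group means in each arm were at 4 d postweaning, 10.18 ± 0.30 (n = 5) and 10.03 ± 1.08 (n = 4). *SIRT1* fell by 0.34, and 2 of the 5 regulators tested, *TFAM* and *SIRT3*, were not called.

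Enzymes of fatty acid activation went both ways. *ACSL3*, which activates long chains and acts in lipid droplet formation, fell by 1.501 (SE 0.28, adjusted p = 3.29e-05), and *ACSL5* fell by 0.49. Both lay near the top of the array's scale at day 1, with saturated spots on 16 and 19 arrays, so their falls may be larger than measured. *ACSL3* was at 15.75 ± 0.25 (n = 6) at day 1 and 13.56 ± 0.48 (n = 3) at 4 wk postweaning in control piglets, and at 15.56 ± 0.34 and 13.01 ± 1.03 (n = 4 each) in amoxicillin piglets. *ACSL4*, which prefers arachidonic acid, rose by 0.35 (SE 0.12, adjusted p = 0.0132). None of the 3 other genes of the carnitine shuttle that were tested (*CPT1B*, *CPT2* and *CRAT*) was called, with differences of -0.12 to -0.25.

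Of 8 other genes of mitochondrial β-oxidation, 4 fell and 0 rose, beside 27.3% lower and 20.8% higher of all genes. *DECR1*, the reductase needed for unsaturated chains, fell by 1.28 (SE 0.18, adjusted p = 4.55e-07), and the short-chain dehydrogenase *ACADS* fell by 0.64. *HADHA* of the trifunctional protein fell by 0.40 and the isomerase *ECI2* by 0.54. Of the genes of peroxisomal oxidation, catalase (*CAT*), *CROT* and *HSD17B4* fell by 0.87, 0.68 and 0.55. *DECR1* was also lower with slide as a fixed block (-1.59, SE 0.44, adjusted p = 0.0207).

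*UCP3*, the close relative of *UCP2*, exceeded the filter limit of 7.68 on all arrays of control day 1 only (8.13 to 11.03). Every value at weaning and later was under it, so no fold or test is given here. Its means went from 9.38 ± 0.95 at day 1 (n = 6) to 6.68 ± 0.84 at weaning (n = 3) in control piglets and from 8.89 ± 1.16 to 5.32 ± 0.39 (n = 4 each) in amoxicillin piglets. *PDK4*, which holds back glucose oxidation when fat is burned, exceeded the limit on all arrays of each suckling group and of no postweaning group, and is given by its values alone. It was highest at weaning in both arms, 10.34 ± 2.06 (n = 3) and 10.48 ± 1.90 (n = 4), as was *CPT1A* among control piglets. At 4 d postweaning its means were 8.24 ± 0.63 (n = 5) and 7.93 ± 0.93 (n = 4), and at 4 wk postweaning 7.69 ± 1.05 (n = 3) and 8.36 ± 1.82 (n = 4).

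*OXCT1*, an enzyme of ketone body oxidation, rose by 0.94 (SE 0.18, adjusted p = 5.71e-05) and by 1.72 with slide as a fixed block (SE 0.43, adjusted p = 0.0111). It was also the only 1 of the 32 list genes called between the arms at any of the 5 ages. That call was at 4 wk postweaning, where 2.13% of all genes were called. At 4 wk postweaning *OXCT1* was 11.15, 12.07 and 12.31 in control piglets and 9.68, 10.05, 10.22 and 10.90 in amoxicillin piglets. The arms did not overlap, and the amoxicillin level was lower by -1.63 (SE 0.43, adjusted p = 0.0224). The call was lost without any of 4 piglets (adjusted p 0.0581 to 0.131), namely control piglets 34 and 37 and amoxicillin piglets 38 and 39. It was also lost with slide as a random block (-1.66, adjusted p = 0.115).

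The genes whose 10 group means ran most like each member were looked up among 1889 tested genes with a symbol. For *CPT1A* they were *NR3C1*, the glucocorticoid receptor (Pearson's r = 0.95), *RBP7* (0.91) and *PDK1* (0.90). For *ACADM* they were *FAM177A1* (0.94), *RAI14* (0.93) and *TFPI* (0.92), and for *ACADL* *ACTC1* (0.92), *SLC35F5* (0.91) and *METTL9* (0.89). For *PPARGC1A* they were *GAL3ST1* (0.96), the chemokine gene *CCL5* (0.94) and *CYP24A1* (0.94). For *UCP2* they were *CD79A* (0.93), the germinal center gene *GCSAM* (0.92) and *ALOX15* (0.92). Of the members among themselves, *ACADM* and *ACADL* had r = 0.68 and *CPT1A* and *ACADM* r = 0.63, while *PPARGC1A* ran against all 3 (r = -0.54 to -0.79). All these values are over the same 10 group means from the same arrays and slides and are a description only.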

How the data were processed

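RNA of 43 jejunal scrapings was labelled with cyanine 3 and hybridized to 1 one-color Agilent array each, and the authors extracted the scans with Feature Extraction 10.7.3.1. They deposited the linear intensity of every spot with its local background, and a table of normalized log2 values for 43603 probe names, made by the authors in R 3.0.2 with limma. Here the median intensities were background corrected with normexp (offset 1) and quantile normalized with limma 3.58.1 in R 4.3.3, which gave the deposited log2 values within 5e-09. Outlier spots marked by the scanner software (45 to 375 on an array) were set to missing before probes with 1 accession were averaged. Symbols were joined by accession from a RefSeq table (assembly Sscrofa11.1), which named 3037 of 35884 accessions. No genome coordinates are given because the array files name no build.

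Genes entered the test when above 7.68, which is 1.1 times the brightest unflagged dark spot (6.98 in log2), on all arrays of at least 1 of the 10 groups of arm and age. All arrays entered 1 fit with lmFit and eBayes. Age contrasts weighted ages equally, p-values were adjusted over the 12771 genes by Benjamini-Hochberg, and the fit was tested on simulated data. Precision is limited by the number of arrays. The 6 members and the lists of pathway genes and cell markers were chosen with earlier results of these data known, and a few listed genes are not reported here and were left out of the list counts and means. Named genes were the members, of the pathway list the 5 called genes with the largest rise and the 5 with the largest fall (only 3 rose) and any called between arms, and for each member the 3 genes with the highest correlation of group means. Other genes named in the list's subgroups were chosen after their values were seen. Settings tried as alternatives are in the closing section. The deposited files hold no comparison columns.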

Additional observations from a re-analysis of the deposited data

Results flagged for a closer look

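Of 48 groups of 4 to 6 piglets, 8 for each of the 6 genes, 1 held a piglet far from the others. The measure was the gap to the nearest piglet over the range of the group. Chance alone marks about 1 group in 20, so 1 of 48 is no more than chance would give. *ACADM* was 12.35 in piglet 10 of the control arm at 4 d postweaning, and the other 4 piglets of the group were at 11.23 to 11.53. The array is the only one of its group on its slide.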

How the results depend on the processing

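Of 1318 values of single members under other settings, 1246 stayed on their side of the threshold, 47 lost a call, 24 gained one and 1 called value changed sign. Of the 1246, 83 had the other sign, all for differences that were not called. With slide as a random block, members called were 0 for the course over ages in control and 2 in amoxicillin piglets, and 1 in each arm between suckling and postweaning. With slide as a fixed block they were 0 for every one of these, 0 with both arms averaged, and 0 for the steps from day 7 to weaning and from weaning to 4 d postweaning. Of the pathway list 3 genes were then called, against 18 without it, beside 391 higher and 447 lower of all 12771 genes with the block. No fixed slide block could be fitted to the amoxicillin effect, since each slide held 1 arm. With a filter on spots well above background, and with outlier spots kept, 1 member was called for the control course, 1 in each arm between suckling and postweaning, and 1 from weaning to 4 d postweaning. *CPT1A* did not pass under either of these settings and was not tested, so it could not be called. With the filter on spots well above background *PPARA* was tested in its place. With outlier spots kept, 3752 genes and 4 members were tested and 8 list genes called. The processed signal gave 1 member for the control course. Weighting arrays gave 5 for the control course, 4 between suckling and postweaning in control, and 1 whose treatment difference varied with age. A log2 limit of 1 left 5 list genes, *UCP3* and *PDK4* among them. With weaning left out of the suckling ages 5 members were called with both arms averaged, among them *UCP2* (0.80), 2 in control and 3 in amoxicillin piglets, and 20 list genes. Without both B-cell-rich weaning arrays, chosen after seeing the data as was leaving out piglet 34, 0 members were called from day 7 to weaning and 1 from 4 d to 4 wk postweaning. The cause of these shifts was not tested.

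Leaving out 1 array at a time gave 2 to 3 members for the control course and 3 to 5 for the amoxicillin course, 4 in all cases between suckling and postweaning, and 2 to 3 in each arm alone. It gave 1 to 2 from day 7 to weaning, 1 to 3 from weaning to 4 d postweaning, 0 in the other steps with both arms averaged, in the treatment tests at each age and in the tests of difference between the arms or of treatment by age, and 16 to 19 list genes. Steps within 1 arm were not counted here.

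Piglet numbers are shared between groups but do not pair the piglets: over 10 pairs of the same number, deviations from the group means correlated at -0.27 to 0.44. With piglet number as a replicate block, which leaves 7 residual degrees of freedom, 0 members and 0 list genes were called in any comparison. Under this block *ACADM* from day 7 to weaning in amoxicillin piglets (0.0864), *PDK4* (0.886) and *PRKAA2* (0.0019) between suckling and postweaning had the opposite sign.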
